A study of Mus musculus with 8 samples.

Results

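The enzymes HR6A and HR6B and the proteins they work with in ubiquitylation were followed at the RNA level in spermatocytes and round spermatids from mice with and without a working Hr6b gene. The 8 genes were Ube2b, which encodes HR6B and is the gene disrupted in the knockout, its X-linked paralog Ube2a, which encodes HR6A, the ubiquitin ligase genes Rad18, Ubr1, Ubr2, Rnf20 and Rnf40, and Wac, the gene of an adaptor of RNF20 and RNF40. All probe sets that the platform annotation assigns to one of these genes alone were taken, which gave 29 of the 45037 probe sets tested and 8 of the 18193 genes measured, and no probe set with several gene names held one of the 8. There were 4 probe sets each for Ube2b, Rad18, Ubr1, Ubr2 and Rnf20, 6 for Wac, 2 for Ube2a and 1 for Rnf40.

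HR6A and HR6B are the mouse homologs of yeast Rad6, an E2 enzyme, which takes up activated ubiquitin from an E1 enzyme and passes it to a protein substrate together with an E3 ligase. The ligase decides the substrate: RAD18 directs the enzyme to the replication clamp PCNA at damaged DNA, UBR1 and UBR2 direct it to proteins with a destabilizing N-terminal residue, and the pair RNF20 and RNF40, helped by WAC, directs it to histone H2B. The X chromosome is silenced in meiotic prophase, so that of the paralogs HR6B, encoded on an autosome, is the one known to persist in spermatocytes, and male mice without HR6B are infertile.

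Gene expression was measured on 8 Affymetrix mouse genome arrays, 2 for each of 4 groups: late spermatocytes of Hr6b+/+ (wild type) males, late spermatocytes of Hr6b-/- (knockout) males, and round spermatids of each genotype. All males were of the FVB background and 4 to 5 weeks old. Cells were enriched by sedimentation at unit gravity and by centrifugation on Percoll, so each fraction can hold other testis cells, and in such fractions fewer cells of a type and less RNA per cell cannot be told apart. Neither the labels nor the methods give the number of mice behind an array or the part of Ube2b that the knockout allele lacks, so the p-values cover no more than the spread between these samples, which may be technical. Signal stands for the deposited RMA value on the linear scale, a log2 fold change is the difference of deposited log2 values, and a probe set is called where limma gave it an adjusted p under 0.05 (Benjamini-Hochberg over the 45037 probe sets, all 8 arrays in 1 fit).

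The markers of the labelled cell types mostly moved with the labels. Of 10 pachytene spermatocyte markers 7 were lower and 2 higher in wild type spermatids than in wild type spermatocytes, and all 11 measured round spermatid markers were higher. Markers of other cells moved with stage too. Sertoli cell markers summed to 4889 to 5928 in wild type spermatocytes and 715 to 767 in wild type spermatids. Of the 11, 8 were called lower and none higher. Spermatogonia and early spermatocyte markers summed to 9457 to 12809 and 1139 to 1220, with 3 of 9 lower and 3 higher. Peritubular and immune cell markers summed to 480 to 511 and 669 to 689, with 3 of 8 higher. Their part in the stage differences was not tested. Some markers of other cells also moved with genotype. The summed signal of 10 late spermiogenesis markers was 26124 to 36271 on the knockout spermatocyte arrays and 5902 to 9540 on the wild type ones, with 10 of 10 called higher. Round spermatid markers on the same arrays summed to 3023 to 3540 against 1321 to 1979, with 3 of 11 called higher. Of 9 spermatogonia and early spermatocyte markers 2 were called lower in knockout spermatocytes (median log2 fold change -0.41). Their sums overlapped, at 9315 to 10087 in the knockout and 9457 to 12809 in wild type. In spermatids, pachytene markers summed to 24063 to 25254 in the knockout and 30567 to 30829 in wild type, with 1 of 10 called lower. Late spermiogenesis markers summed to 209490 to 211930 in knockout and 160680 to 164030 in wild type spermatids, with none of 10 called. Round spermatid markers summed to 74873 to 75783 and 64085 to 67052, with 2 of 11 called higher. Peritubular and immune cell markers summed to 804 to 867 and 669 to 689, with 1 of 8 called higher. The summed signal of 11 Sertoli cell markers was 1153 to 1193 on the knockout spermatid arrays and 715 to 767 on the wild type ones, with 4 of 11 called higher. The scale also moved: the median of 15485 expressed autosomal probe sets (a signal of 100 or more on at least 4 of the 8 arrays) was 0.21 lower on the log2 scale in knockout than in wild type spermatids and 0.03 higher in knockout spermatocytes. Values called "after median scaling" come from arrays shifted so that this median was equal on all 8. Of the 10 pachytene markers, 1 was then called higher and 1 lower in knockout spermatids. Under cyclic loess normalization 1 was called higher and none lower, so the direction of that list depends on the scale. The part of these shifts in the results below was not tested beyond the values given beside them.

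In knockout spermatocytes, 2 of the 29 probe sets were lower and none was higher than in wild type, and both were Ube2b probe sets. Of all probe sets 1.59% were called in this comparison, 1.18% higher and 0.413% lower. Among the 29 probe sets, 7 had an unadjusted p under 0.05 from limma. The share of all probe sets at that unadjusted threshold is not given here, so this count is not read further. In knockout spermatids, 10 of the 29 probe sets were lower and 1 was higher, beside 14.5% of all probe sets called, 9.63% lower and 4.83% higher. The 10 comprised all 4 Ube2b probe sets, 2 of Rad18 and 1 each of Ubr1, Ubr2, Rnf40 and Wac, and the higher one was another probe set of Ubr2. Without Ube2b, 7 of 25 probe sets (28.0%) were called in spermatids, 6 of them lower, and the median log2 fold change over these 25 was 0.01, beside 0.02 over all probe sets. Calls were more frequent among expressed probe sets of the whole array, of which 26.9% were called, 20.8% lower; of the 14 expressed probe sets of the other 7 genes 5 (35.7%) were called, all 5 lower. After median scaling, 7 of the 29 were called in spermatids, 3 lower (2 of Ube2b and 1 of Ubr2) and 4 higher (2 of Ubr2 and 2 of Wac), beside 23.8% of all probe sets, 18.8% higher and 5.02% lower.

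**Figure D1:**
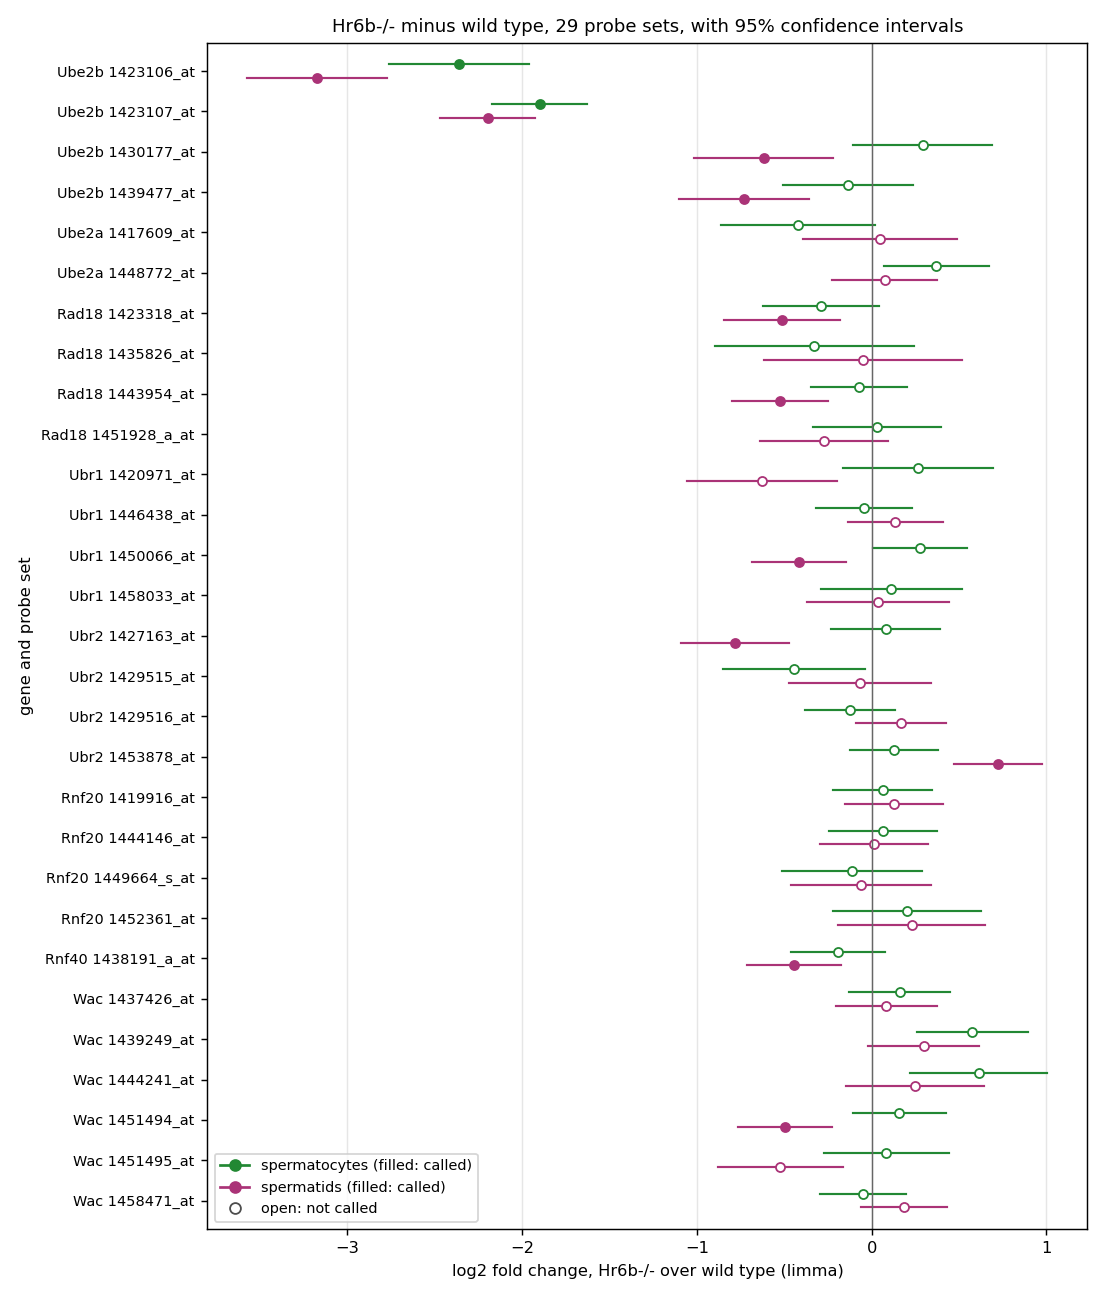
Log2 fold change (x axis, Hr6b-/- over wild type, limma) with its 95% confidence interval for each of the 29 probe sets (y axis), in spermatocytes (green) and spermatids (purple). Filled points had an adjusted p under 0.05. In spermatocytes the 2 filled points are Ube2b probe sets at -2.36 and -1.90; in spermatids 10 filled points lie below 0 and 1, of Ubr2, lies at 0.72.

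Ube2b, the disrupted gene, fell most on 2 of its probe sets in both cell types, while the other 2 were not called in spermatocytes and fell less in spermatids. Probe set 1423107_at had signals of 2855 and 3349 in wild type spermatocytes, 833 and 824 in knockout spermatocytes, 4600 and 4612 in wild type spermatids and 951 and 1061 in knockout spermatids. Knockout and wild type arrays were far apart in both cell types. The knockout mean was 26.7% of the wild type mean in spermatocytes (log2 fold change -1.90, SE 0.12, adjusted p = 0.000659 from limma). In spermatids it was 21.8% (-2.20, SE 0.12, limma adjusted p = 4.51e-05). Probe set 1423106_at, designed from the same cDNA record, had 2042 and 2276 in wild type spermatocytes, 421 and 417 in knockout spermatocytes, 1133 and 983 in wild type spermatids and 95.4 and 144 in knockout spermatids. Its knockout mean was 19.4% of the wild type mean in spermatocytes and 11.3% in spermatids (log2 fold changes -2.36 and -3.17, SE 0.18 each), and again no knockout array reached a wild type one.

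The other 2 Ube2b probe sets were each designed from a record of their own. Probe set 1439477_at had 270 and 210.5 in wild type spermatocytes and 213 and 221 in knockout spermatocytes, so that the arrays of the genotypes overlapped. The difference of -0.13 on the log2 scale (95% confidence interval -0.51 to 0.24) did not pass the test (adjusted p = 0.868 from limma), and the knockout mean was 90.4% of wild type. In spermatids it had 233 and 275 in wild type and 173 and 134 in the knockout, 60.6% of the wild type mean (log2 fold change -0.73, SE 0.17, adjusted p = 0.0169 from limma). Here the genotypes did not overlap. Probe set 1430177_at, with signals under 100 on all 8 arrays, had 67.1 and 68.7 in wild type and 95.2 and 72.6 in knockout spermatocytes, a log2 fold change of 0.29 (95% confidence interval -0.10 to 0.69, adjusted p = 0.636 from limma). In spermatids it had 67.7 and 94.6 in wild type and 49.5 and 54.9 in the knockout, 64.3% of the wild type mean (log2 fold change -0.62, SE 0.18, adjusted p = 0.0447 from limma). The spermatid calls of these 2 probe sets were lost without some single arrays: that of 1439477_at without knockout replicate 2 or wild type replicate 2 (adjusted p up to 0.112), and that of 1430177_at without knockout replicate 1, knockout replicate 2 or wild type replicate 2 (up to 0.261). After median scaling their log2 fold changes were -0.52 and -0.41 and neither was called.

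**Figure D2:**
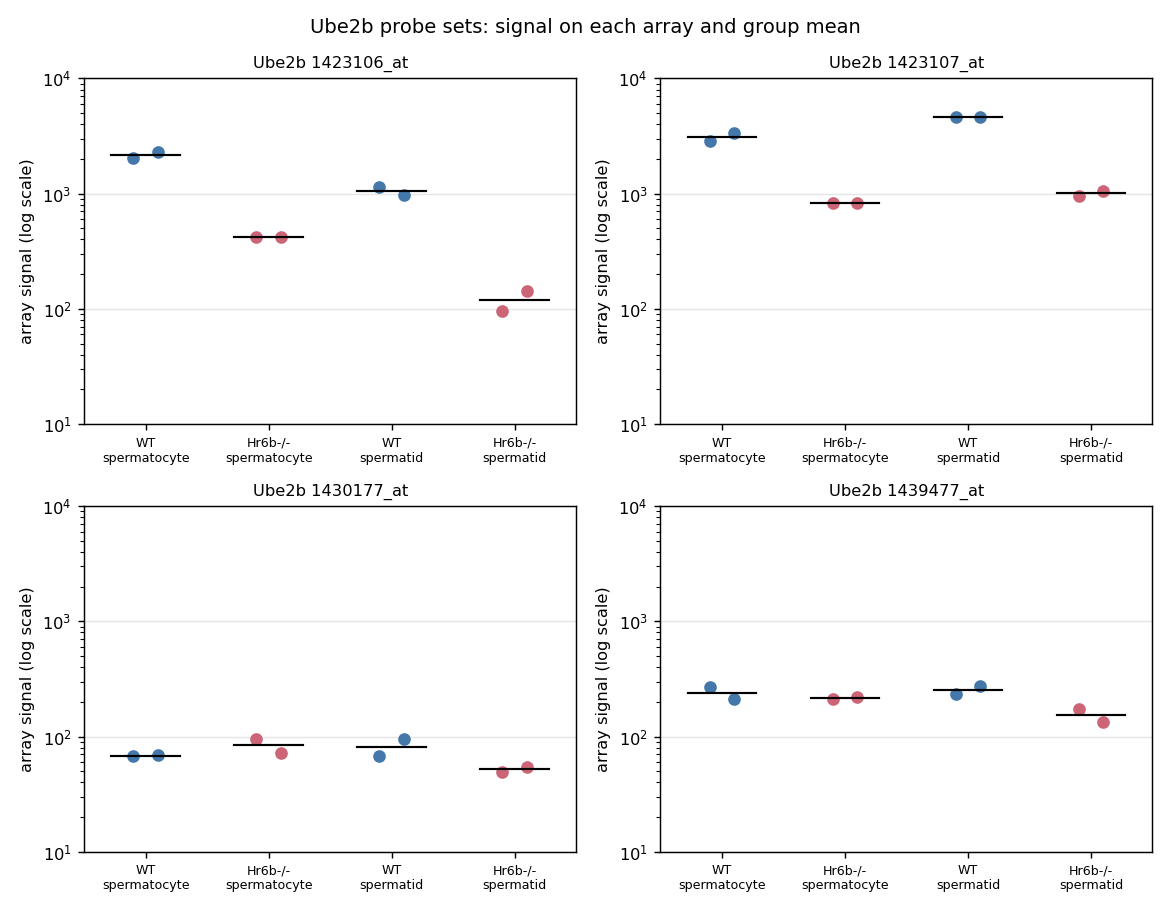
Signal (log scale) of the 4 Ube2b probe sets on each of the 8 arrays, by group (x axis); points are arrays, horizontal lines are means of 2 arrays, blue is wild type and red is Hr6b-/-. Probe sets 1423106_at and 1423107_at are separated by genotype in both cell types, whereas 1430177_at and 1439477_at lie at similar signals in both genotypes of spermatocytes.

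The inequality of the 4 probe sets was tested with limma's diffSplice, which sets the log2 fold change of a probe set against the mean of the others of its gene, over 25762 probe sets of 9010 genes with 2 or more probe sets. The values of a gene are tied to each other, since a fall at some of its probe sets places the rest above them. Calls within a gene are therefore not separate results. In spermatocytes all 4 Ube2b probe sets differed from the rest of the gene, beside 0.889% of all probe sets called by this test. This count was 2 among expressed probe sets, where 1430177_at was not tested, and 2 without either knockout spermatocyte array or without wild type spermatocyte replicate 2. The knockout effect at 1423106_at lay below the mean effect of the others, with a difference of -1.78 on the log2 scale (adjusted p = 3.64e-05 from limma), and the difference at 1423107_at was -1.17 (adjusted p = 0.00468). Probe sets 1430177_at and 1439477_at stood above the others by 1.76 and 1.19 (limma adjusted p = 3.88e-05 and 0.00368). The signals of 1430177_at were not shown to be above background in either cell type, so a fall there may be understated. The spermatid differences were -1.99, -0.69, 1.41 and 1.27 in the same order of 1423106_at, 1423107_at, 1430177_at and 1439477_at, with adjusted p from 1.20e-06 to 0.0370 and 9.02% of all probe sets called. The spermatid count was 3 to 4 with 1 array left out and 2 among expressed probe sets. These tests compare changes and not levels, since the signal of a probe set cannot be set against that of another. The source of the signal that remained at 1423107_at in the knockout was not tested.

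Across the 2 stages, the Ube2b probe sets also differed. In wild type, 1423107_at rose from spermatocytes to spermatids (log2 fold change 0.57, SE 0.12, adjusted p = 0.00241 from limma), and 1423106_at fell (-1.03, SE 0.18, adjusted p = 0.00063). The group order of 1423107_at was therefore wild type spermatids, wild type spermatocytes, knockout spermatids and knockout spermatocytes, of which the last pair differed by 0.28 without passing the test (adjusted p = 0.0699 from limma); after median scaling that difference was 0.88 and called. The other 2 probe sets, 1430177_at and 1439477_at, had stage differences of 0.24 and 0.09 in wild type and neither was called, whereas after median scaling they were 0.61 and 0.46 and both were. In the knockout 1423106_at fell (-1.84), and 1430177_at (-0.67, adjusted p = 0.00758 from limma) and 1439477_at (-0.51, adjusted p = 0.0216) were called lower as well, although after median scaling the values of these last probe sets were -0.07 and 0.10 and not called. In no Ube2b probe set did the knockout effect differ between the cell types by limma's interaction test, where the values ran from -0.91 at 1430177_at to -0.30 at 1423107_at and the lowest adjusted p was 0.0692.

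Ube2a, the gene of HR6A on the X chromosome, was not called in the knockout in either cell type, and its signal rose steeply from spermatocytes to spermatids. Probe set 1448772_at had signals of 65.6 and 50.8 in wild type spermatocytes, 75.8 and 73.4 in knockout spermatocytes, 2218 and 2330 in wild type spermatids and 2403 and 2383 in knockout spermatids. The knockout arrays lay above the wild type arrays in both cell types without overlap, by 0.37 on the log2 scale in spermatocytes (95% confidence interval 0.07 to 0.67, adjusted p = 0.307 from limma) and by 0.07 in spermatids (95% confidence interval -0.23 to 0.38, adjusted p = 0.777). The spermatocyte value stands beside the raised spermatid markers of the same knockout arrays, and the part of those cells in it was not tested. The stage difference was 39.4-fold in wild type (log2 fold change 5.30, SE 0.14) and 32.1-fold in the knockout (5.00, SE 0.14), both called, and the interaction of -0.30 was not (adjusted p = 0.406 from limma). No detection calls were used here and the spermatocyte signals were not shown to be above background, so these folds and the interaction may understate the differences. Probe set 1417609_at, designed from the same record, was low throughout, with means of 17.6 and 13.3 in wild type and knockout spermatocytes and 27.1 and 27.5 in wild type and knockout spermatids. It was called higher in spermatids in wild type (0.60, adjusted p = 0.0269 from limma) and in the knockout (1.06, adjusted p = 0.000882).

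**Figure D3:**
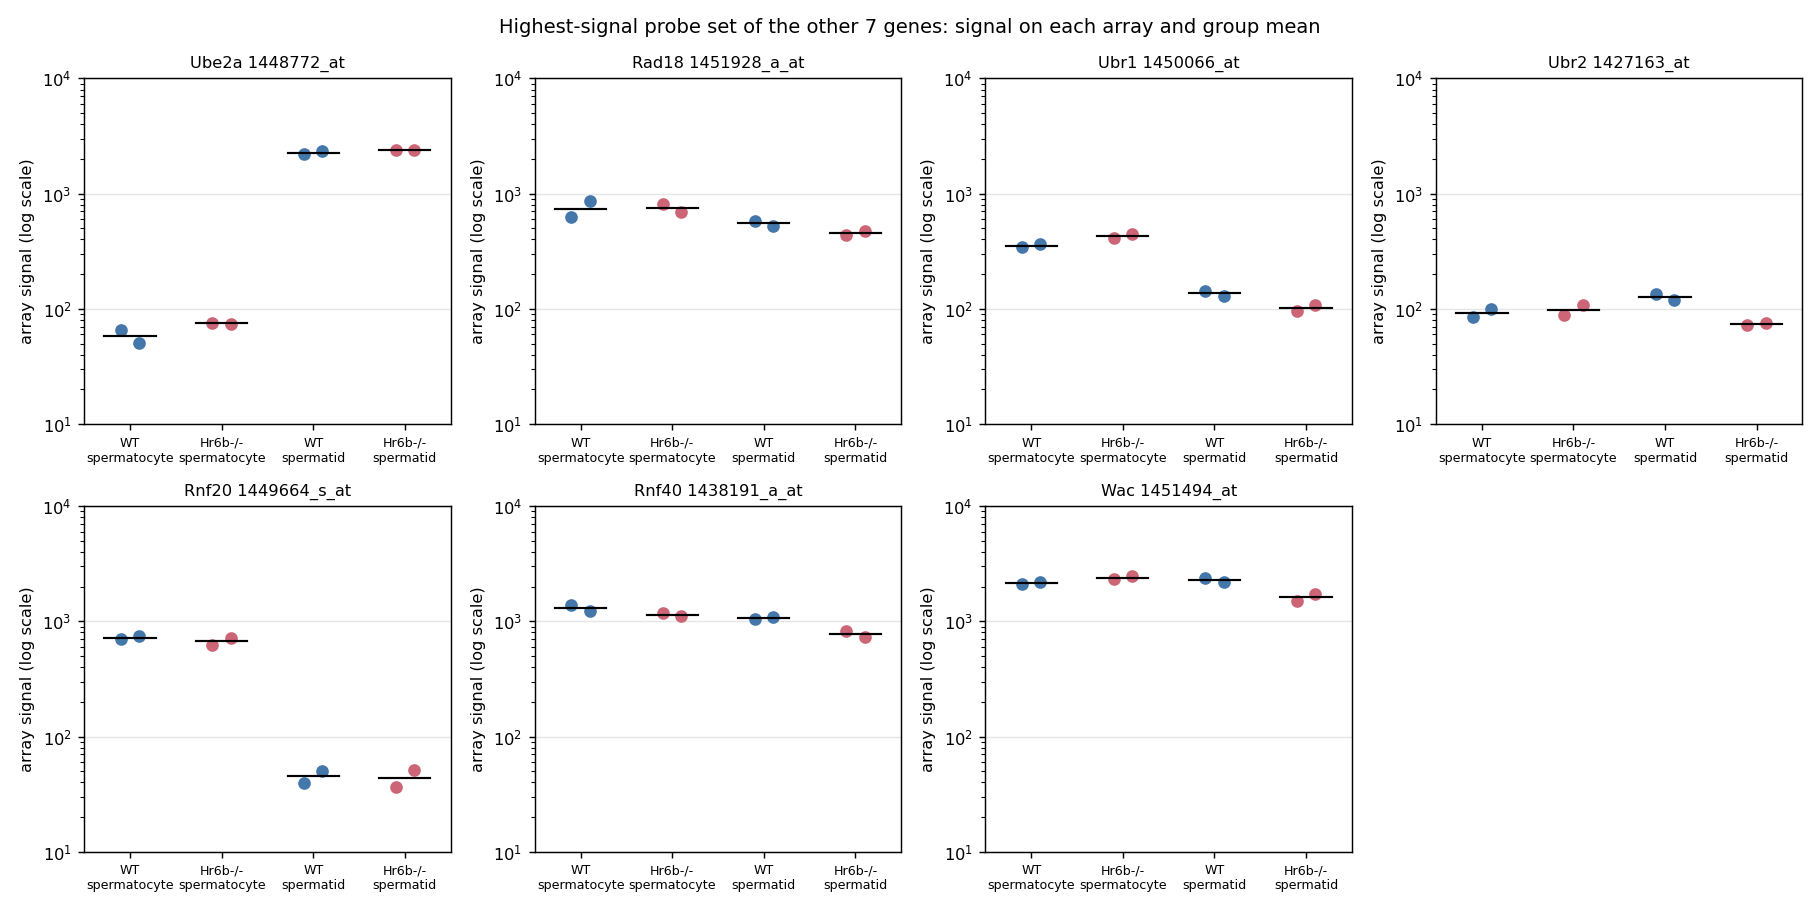
Signal (log scale) of the probe set with the highest mean for each of the other 7 genes on the 8 arrays, by group (x axis); points are arrays, horizontal lines are means of 2 arrays, blue is wild type and red is Hr6b-/-. Ube2a goes from 50.8 to 75.8 in spermatocytes to 2218 to 2403 in spermatids, and Rnf20 from 620 to 746 down to 36.2 to 51.0.

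Rad18, whose product is the ligase for PCNA, had 2 probe sets called lower in knockout spermatids and none called in knockout spermatocytes. Probe set 1443954_at had 160 and 174 in wild type spermatids and 107 and 125 in knockout spermatids, against 458 and 475 in wild type and 427 and 462 in knockout spermatocytes. The genotypes were apart in spermatids (log2 fold change -0.53, SE 0.12, adjusted p = 0.0190 from limma) and overlapped in spermatocytes (-0.07, adjusted p = 0.917). Probe set 1423318_at had 174 and 176 in wild type and 105 and 143 in knockout spermatids (-0.51, SE 0.15, adjusted p = 0.0464 from limma). In spermatocytes it had 1417 and 1462 in wild type and 1123 and 1231 in the knockout, apart but not called (-0.29, adjusted p = 0.533). Probe set 1451928_a_at, with means of 552 ± 35.7 and 456 ± 27.0 in wild type and knockout spermatids (SD, n = 2), had a log2 fold change of -0.27 (adjusted p = 0.317 from limma), and 1435826_at, at 29.4 ± 6.87 and 28.0 ± 0.407, one of -0.05 (adjusted p = 0.926). In spermatocytes the genotypes overlapped on both, at 621 and 865 in wild type and 810 and 692 in the knockout on the former, and at 136 and 243 in wild type and 164 and 128.5 in the knockout on the latter. The part of the lower pachytene marker sum of the knockout spermatid arrays in these values was not tested. No Rad18 probe set differed from the others of the gene in its knockout effect by diffSplice. After median scaling the 2 called values, of 1443954_at and 1423318_at, became -0.32 and -0.30 and neither was called (adjusted p = 0.0795 and 0.129 from limma). Leaving out 1 array at a time, 5 of 8 fits kept the call of 1443954_at (lost without knockout spermatid replicate 1 and without either wild type spermatid array) and 1 of 8 that of 1423318_at (kept without knockout spermatid replicate 2).

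The stage difference of Rad18 was larger than that of genotype. In wild type, 3 of its 4 probe sets fell from spermatocytes to spermatids, with log2 fold changes of -3.04 at 1423318_at, -2.65 at 1435826_at and -1.49 at 1443954_at. Probe set 1451928_a_at had 621 and 865 in wild type spermatocytes and 577 and 526 in wild type spermatids, a difference of -0.41 that was not called (adjusted p = 0.0570 from limma). In the knockout all 4 were called lower in spermatids, but 1451928_a_at (-0.71) was -0.11 after median scaling (adjusted p = 0.507 from limma) and -0.03 after cyclic loess (adjusted p = 0.907), not called in either. The signals of 1435826_at in spermatids were not shown to be above background.

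Ubr1 and Ubr2 encode N-recognins, the ligases that bind destabilizing N-terminal residues, and male mice without UBR2 are known to be infertile. Of the 4 Ubr1 probe sets, 1 was called lower in knockout spermatids. Probe set 1450066_at had 144 and 129 in wild type and 96.2 and 108 in knockout spermatids (log2 fold change -0.42, SE 0.12, adjusted p = 0.0456 from limma), and 343 and 365 in wild type and 415 and 442 in knockout spermatocytes (0.28, adjusted p = 0.434). The knockout arrays were thus below the wild type ones in spermatids and above them in spermatocytes, and the lower pachytene marker sum of the knockout spermatid arrays stands beside the former; its part was not tested. The interaction of -0.69 just missed the threshold (adjusted p = 0.0503 from limma). Probe set 1420971_at, from the same record, had 99.0 and 71.7 in wild type and 50.6 and 58.8 in knockout spermatids, a difference of -0.63 that was not called (adjusted p = 0.0562 from limma). Its spermatocyte arrays, at 161 and 227 in wild type and 227 and 233 in the knockout, overlapped. By stage, Ubr1 fell at 3 of its 4 probe sets in both genotypes, with log2 fold changes of -1.38, -1.18 and -1.21 in wild type at 1450066_at, 1420971_at and 1458033_at, and 1446438_at was not called. The 2 remaining Ubr1 probe sets, 1446438_at and 1458033_at, had signals of 31.7 to 95.6 over the 8 arrays and spermatid differences of 0.14 and 0.04, not called. The spermatid call of 1450066_at was kept in 2 of 8 fits with 1 array left out, those without a wild type spermatocyte array, and was lost after median scaling (-0.21, adjusted p = 0.208 from limma).

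Of the 4 Ubr2 probe sets, 1 was called lower in knockout spermatids and 1, at signals not shown to be above background, was called higher. Probe set 1427163_at had 135 and 120 in wild type and 72.5 and 75.8 in knockout spermatids, where the genotypes were apart (log2 fold change -0.78, SE 0.14, adjusted p = 0.00562 from limma). In spermatocytes it had 84.7 and 99.2 in wild type and 87.7 and 107 in the knockout, which overlapped (0.08, adjusted p = 0.919). It was the only one of the 29 probe sets whose knockout effect was called different between the cell types, with an interaction of -0.86 (SE 0.20, adjusted p = 0.0407 from limma), beside 4.6% of all probe sets called, 3.14% lower and 1.46% higher. This call held in 2 of 4 other settings, being lost after cyclic loess and after median scaling, and in 1 of 8 fits with 1 array left out, that without wild type spermatocyte replicate 2. Of the 29, 10 had an unadjusted p under 0.05 for this difference, a threshold whose share of all probe sets is not given here. Probe set 1453878_at, a low one, had 21.5 and 23.8 in wild type and 38.2 and 36.4 in knockout spermatids, again apart, and was higher (0.72, SE 0.11, adjusted p = 0.00296 from limma). It had 18.4 and 18.6 in wild type and 20.9 and 19.6 in knockout spermatocytes (0.13, adjusted p = 0.791). By diffSplice the former stood -1.06 below and the latter 0.95 above the rest of the gene in spermatids (adjusted p = 0.000238 and 0.000695 from limma). The difference of effects between cell types at 1427163_at also stood apart from the rest of Ubr2 (-1.28, adjusted p = 0.00757 from diffSplice), the only one of 28 probe sets to do so, beside 1.62% of all. Both spermatid calls held in the 5 other settings that included them and in all 8 fits with 1 array left out. The 2 other Ubr2 probe sets, 1429515_at and 1429516_at, ran from 25.8 to 84.7 over the 8 arrays and had spermatid differences of -0.07 and 0.17, not called. The former had 72.1 and 84.7 in wild type and 51.1 and 64.8 in knockout spermatocytes, apart but not called (-0.44, adjusted p = 0.391 from limma), and fell to 30.2 and 33.9 in wild type and 25.8 and 36.2 in knockout spermatids. By stage, 1427163_at was higher in spermatids in wild type (0.48, adjusted p = 0.0153 from limma) and lower in the knockout (-0.39, adjusted p = 0.0338), although the latter turned to 0.22 and was not called after median scaling. None of the 4 Ubr2 probe sets reached a signal of 100 on 4 arrays.

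RNF20 and RNF40 form the ligase for H2B. No Rnf20 probe set was called by genotype in either cell type. Probe set 1449664_s_at, of a type that may match more than 1 transcript, had 701 and 746 in wild type and 620 and 721 in knockout spermatocytes, which overlapped, and 39.8 and 50.5 in wild type and 36.2 and 51.0 in knockout spermatids, which overlapped as well. The 95% confidence interval of the genotype difference was -0.51 to 0.29 in spermatocytes and -0.46 to 0.34 in spermatids, which leaves room for a change of that size. The signal fell 16.1-fold from wild type spermatocytes to wild type spermatids (log2 fold change -4.01, SE 0.18, adjusted p = 2.16e-08 from limma) and 15.6-fold in the knockout, with spermatid signals that were not shown to be above background, so that the folds may understate the fall. Probe set 1452361_at had means of 153 ± 46.1 and 172 ± 8.70 in wild type and knockout spermatocytes and 75.7 ± 2.86 and 89.0 ± 12.5 in wild type and knockout spermatids (SD, n = 2 each), a fall of 0.99 on the log2 scale by stage in wild type. The 2 others, 1419916_at and 1444146_at, stayed between 16.7 and 32.2 on all arrays. The stage difference of 1419916_at in wild type (-0.56, adjusted p = 0.00331 from limma) was -0.19 after median scaling and not called (adjusted p = 0.159).

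Rnf40, with 1 probe set, 1438191_a_at, had 1386 and 1240 in wild type spermatocytes, 1178 and 1114 in knockout spermatocytes, 1042 and 1088 in wild type spermatids and 832 and 733 in knockout spermatids. The genotypes did not overlap in either cell type. The difference was called in spermatids (log2 fold change -0.45, SE 0.12, adjusted p = 0.0348 from limma) and not in spermatocytes (-0.20, adjusted p = 0.643), and the interaction of -0.25 was not called (adjusted p = 0.430). After median scaling the spermatid value was -0.24 (adjusted p = 0.195 from limma), and 2 of 8 fits with 1 array left out, those without a wild type spermatocyte array, kept the call. In wild type the stage difference was -0.30 (adjusted p = 0.0579 from limma), while Rnf20 fell much further at 1449664_s_at.

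Wac had 1 of 6 probe sets called lower in knockout spermatids and none in knockout spermatocytes. Probe set 1451494_at had 2383 and 2173 in wild type and 1504 and 1731 in knockout spermatids, which did not overlap (log2 fold change -0.50, SE 0.12, adjusted p = 0.0222 from limma). In spermatocytes it had 2091 and 2208 in wild type and 2346 and 2452 in the knockout, with the knockout above (0.16, adjusted p = 0.737). Probe set 1451495_at, from the same record, had 431 and 368 in wild type and 245 and 314 in knockout spermatids, apart but not called (-0.52, adjusted p = 0.0564 from limma). By diffSplice both stood below the rest of Wac in spermatids, by -0.55 and -0.59 (adjusted p = 0.0278 and 0.0193 from limma). The rest includes 1439249_at, 1444241_at and 1458471_at, with spermatid signals not shown to be above background, where a fall may be understated. Their means were 17.2, 32.4 and 19.2 in wild type and 21.0, 38.4 and 21.8 in knockout spermatids. The other 4 Wac probe sets had spermatid differences of 0.08 to 0.30, none called. Of these, 1437426_at had 90.5 and 111 in wild type and 107 and 105 in knockout spermatids, which overlapped, and 546 and 517 in wild type and 624 and 565 in knockout spermatocytes. Over the other genes with 2 or more probe sets, diffSplice called 4 of 24 probe sets in spermatids, beside 9.02% of all. They were 1451494_at, 1451495_at and the 2 of Ubr2. In spermatocytes it called 0 of 24, beside 0.889% of all. There 6 had an unadjusted p under 0.05, a threshold whose share of all probe sets is not given here. The value of 1451494_at after median scaling was -0.29 (adjusted p = 0.0985 from limma), and its call was lost without knockout spermatid replicate 1 and without either wild type spermatid array.

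In spermatocytes, the Wac probe sets 1439249_at and 1444241_at had the largest differences by genotype among the 25 probe sets of the other 7 genes. The former had 73.9 and 86.5 in wild type and 121 and 118 in the knockout (log2 fold change 0.58, SE 0.14, adjusted p = 0.0993 from limma), and the latter 111 and 146 in wild type and 217 and 174 in the knockout (0.61, SE 0.18, adjusted p = 0.162). Knockout arrays were above wild type arrays on both, and neither passed the test. By stage, 4 of the 6 Wac probe sets fell in wild type, with log2 fold changes from -2.41 to -1.36, whereas 1451494_at did not (0.08, adjusted p = 0.589 from limma), nor did the low 1458471_at (-0.13, adjusted p = 0.349), whose signals were 18.7 to 22.8.

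**Figure D4:**
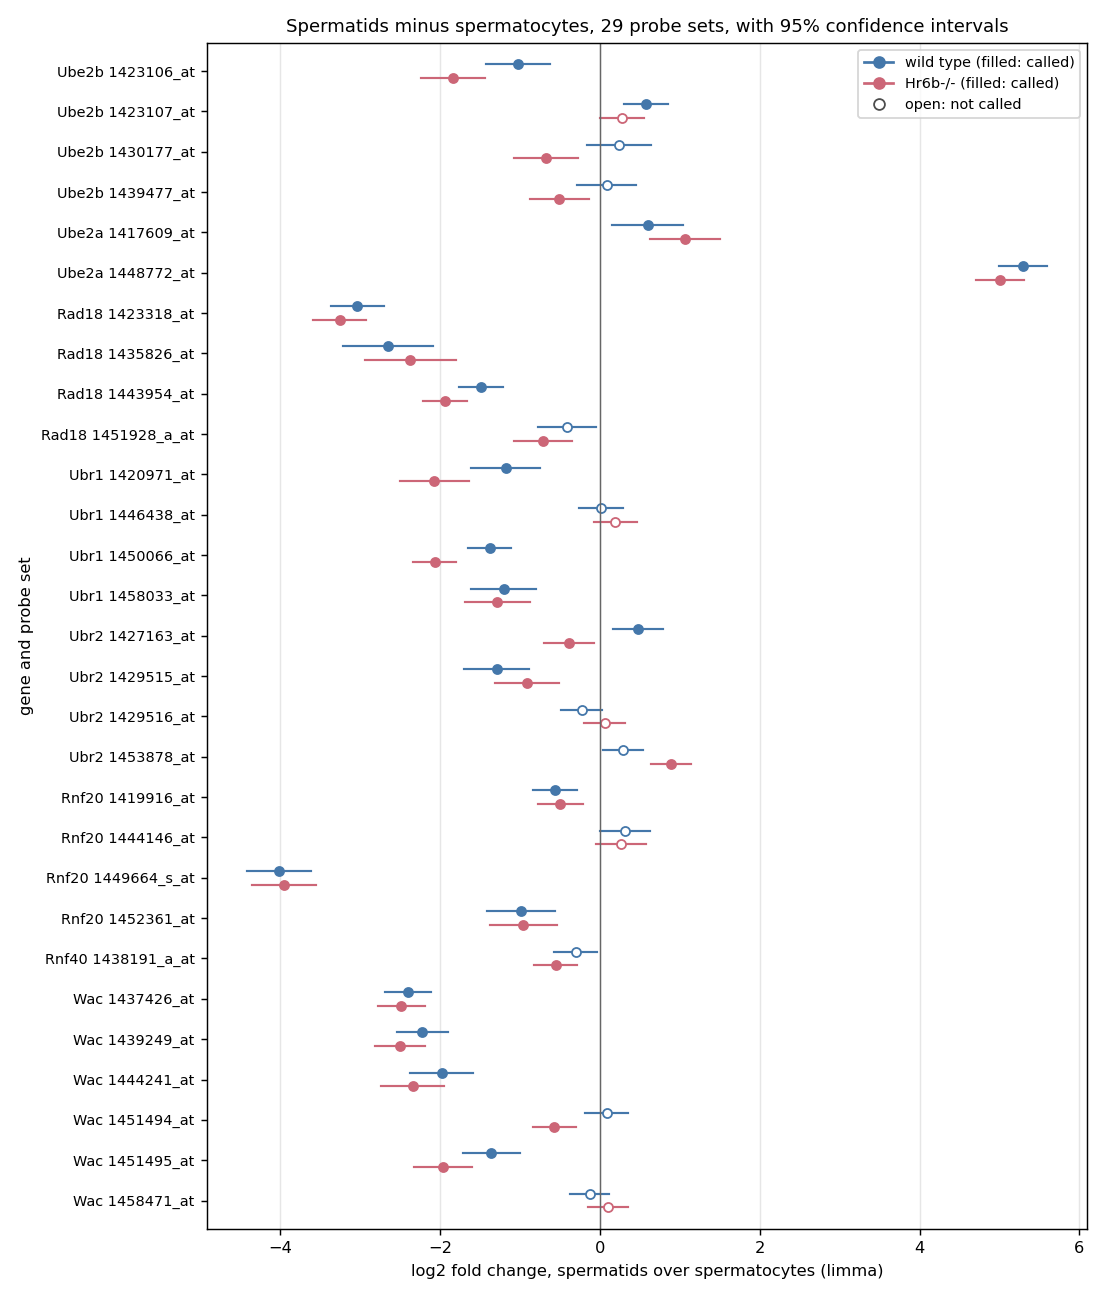
Log2 fold change (x axis, spermatids over spermatocytes, limma) with its 95% confidence interval for each of the 29 probe sets (y axis), in wild type (blue) and Hr6b-/- (red). Filled points had an adjusted p under 0.05. Ube2a 1448772_at lies at 5.30 and 5.00 and Rnf20 1449664_s_at at -4.01 and -3.96; after median scaling, 5 of the called knockout values change sign (Ube2b 1439477_at, Ubr2 1427163_at, Rnf20 1419916_at, Rnf40 1438191_a_at and Wac 1451494_at).

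Between the cell types, more of the 29 probe sets were called than between the genotypes. In wild type, 15 were lower and 4 were higher in spermatids, beside 53.3% of all probe sets called, 27.3% lower and 26% higher. The 4 higher were both Ube2a probe sets, Ube2b 1423107_at and Ubr2 1427163_at. In the knockout, 21 were lower and 3 were higher, beside 63% of all probe sets, 28.7% lower and 34.2% higher. Of expressed probe sets of the whole array, 50% were lower and 32.6% higher in wild type. In the knockout these shares were 55.1% and 30.5%. Of the 17 expressed probe sets among the 29, 11 were lower and 2 higher in wild type, and 15 and 1 in the knockout. The stage comparisons use the same arrays as the genotype comparisons. Median scaling adds 0.37 to every wild type stage difference and 0.61 to every knockout one. In wild type 24 of the 29 were then called, 10 of them higher. Of all probe sets 82% were called there, 61.3% higher and 20.8% lower. In the knockout 20 of the 29 were called, 8 of them higher, beside 88.6% of all probe sets, 69.3% higher and 19.3% lower. By diffSplice, which no such shift changes, the stage difference set apart 2 of 4 Ube2b probe sets and 18 of 24 others in wild type, and 2 of 4 and 19 of 24 in the knockout, beside 52.1% and 55.7% of all probe sets.

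**Figure D5:**
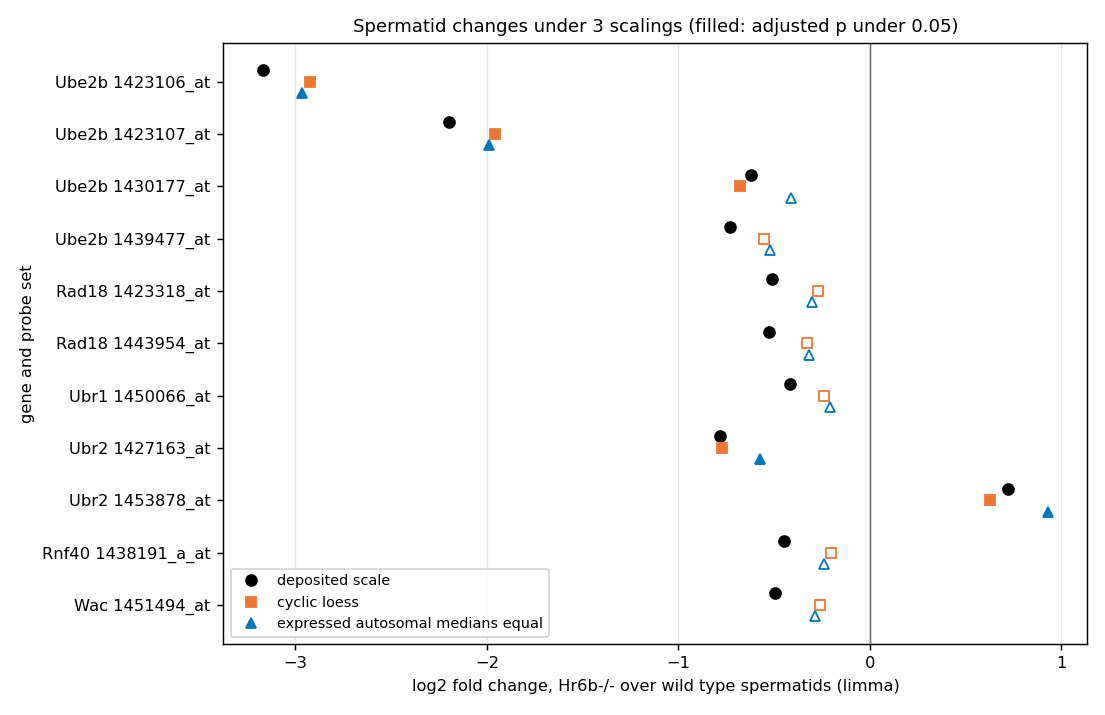
Log2 fold change (x axis, Hr6b-/- over wild type spermatids, limma) of the 11 probe sets called in spermatids (y axis) on the deposited scale (circles), after cyclic loess (squares) and after median scaling (triangles); filled symbols had an adjusted p under 0.05. No value changes sign, and Ube2b 1423106_at, Ube2b 1423107_at and both Ubr2 probe sets are filled on all 3 scales.

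Other genes of the same pathways were read from lists of known components, at the probe set with the highest mean of each gene, beside 18193 genes of which 2.22% were higher and 0.511% lower in knockout spermatocytes and 6.93% higher and 12.9% lower in knockout spermatids. In spermatocytes 1 of 2 measured genes of ubiquitin and E1 enzymes and 1 of 17 of H2B ubiquitylation were lower. No listed gene was higher, and none of the other lists, of 8, 12 and 10 measured genes, was called. The 2 lower genes were Uba1y, the Y-linked gene of a ubiquitin-activating enzyme (log2 fold change -0.79, SE 0.14, adjusted p = 0.0246 from limma), and Huwe1, an X-linked ligase gene (-0.83, SE 0.11, adjusted p = 0.00674). On the same knockout arrays 2 of 9 spermatogonia and early spermatocyte markers were called lower and 10 of 10 late spermiogenesis markers higher. The part of such cells in these 2 values was not tested. In spermatids 3 of 12 genes of PCNA ubiquitylation and translesion synthesis were lower, namely Rev3l, the catalytic subunit of polymerase zeta (-0.87), Zranb3, a translocase that binds ubiquitylated PCNA (-0.77), and Wdr48, the cofactor of the deubiquitylase USP1 (-0.43). Pcna itself, Usp1 and the other 7 did not pass the test. Of 17 genes of H2B ubiquitylation, Paf1 (-0.75) and Ctr9 (-0.47), both subunits of the PAF complex that recruits the H2B ligase, were lower, and Usp3, a deubiquitylase (0.46), was higher. Of 8 genes of the N-degron pathway, Ate1, the arginyltransferase (-0.75), and Ubr3 (-0.46) were lower and Ubr7 was higher (0.66). Of 10 genes of H2A ubiquitylation, Ring1 was lower (-0.51), and of 2 measured genes of ubiquitin and E1 enzymes neither was called. After median scaling Wdr48, Ctr9, Ubr3 and Ring1 were no longer called, while Rev3l, Zranb3, Paf1, Ate1, Usp3 and Ubr7 were; after cyclic loess Ate1 was not called either. Under both of these settings the H2B list had 3 genes higher and 1 lower, since Setd1a and Usp44, named here after their values were seen, were also called higher (0.50 and 0.52 after median scaling). Of all probe sets 18.8% were higher and 5.02% lower after median scaling, and 5.5% higher and 5.5% lower after cyclic loess. These shares are over probe sets, a base unlike the gene counts, and shares over genes under these settings are not given here.

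The genes whose values over the 8 arrays were most like those of Ube2b 1423107_at, among probe sets of 1 gene with a mean signal of 100 or more, were Glo1 (Pearson's r = 0.980), Nsd3 (0.979) and Lrmda (0.9753). Those most like Ube2a 1448772_at were Scamp2, 4933436I01Rik and Pdzk1ip1, each at r = 1.00 when rounded. These are descriptions over 8 arrays in 4 groups, and for Ube2a they rest on the gap between the 2 cell types.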

How the data were processed

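RNA of the 8 cell preparations was labelled and hybridised to Affymetrix mouse genome arrays. The authors background-corrected, normalized and summarized the scans with RMA and deposited 1 log2 value per probe set and array, which was used without further normalization; RMA forces the arrays to 1 distribution, so a broad shift in one group is partly spread over all probe sets. The deposited table holds no detection calls, and the number of arrays limits the precision: an exact permutation test of 2 against 2 cannot go below p = 0.333. Replicate arrays correlated at 0.995 to 0.997, and 33.2% to 35.4% of probe sets per array had a signal of 100 or more.

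Gene names came from the platform annotation (34945 probe sets with 1 gene, 932 with several, 9160 with none), with current symbols from a RefSeq table; 64 control probe sets were left out. A linear model with a mean per group was fitted with limma 3.58.1 in R 4.3.3 to all 8 arrays, with empirical Bayes moderation (4 residual and 5.85 prior degrees of freedom). Probe sets of 1 gene were compared with limma's diffSplice. The code was tested on simulated data. The 8 genes, the lists and the tests were chosen with earlier results of these data known. Named genes were the members with all probe sets, up to 3 genes per list and stage with the largest called change, and the 3 most similar genes. Alternatives were the 4 arrays of a comparison alone, a replicate block, cyclic loess, median scaling, expressed probe sets alone, a variance trend, and each array left out in turn.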

Additional observations from a re-analysis of the deposited data

Results flagged for a closer look

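The knockout effect on Ubr2 1427163_at was called different between the cell types, the only such call among the 29 probe sets (3.45%). Of all probe sets 4.6% were called, so the share among the 29 was not above that of the array. Ubr2 1427163_at was not an expressed probe set by the rule used here. The log2 fold change in spermatids minus that in spermatocytes was -0.86 (SE 0.20, adjusted p = 0.0407 from limma's interaction test over all 8 arrays). Signals were 128 ± 10.9 and 74.2 ± 2.39 in wild type and knockout spermatids (SD, n = 2 each). In wild type and knockout spermatocytes they were 92.0 ± 10.2 and 97.4 ± 13.6 (SD, n = 2 each). The adjusted p ran from 0.0384 to 0.130 over the 12 other fits that gave this value. It was under 0.05 with the replicate block, with the variance trend and without wild type spermatocyte replicate 2, and not under cyclic loess, after median scaling or without any other array. No outlier could be tested in groups of 2.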

How the results depend on the processing

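The 2 Ube2b calls in spermatocytes held in every setting, and no other probe set of the 29 was called there. In spermatids the count of 11 became 5 under cyclic loess, 7 (3 lower, 4 higher) after median scaling and 7 with the 4 spermatid arrays alone, and 5 to 12 with 1 array left out: 5 without knockout spermatid replicate 1, 6 without wild type spermatid replicate 1 and 5 without wild type spermatid replicate 2. The single call of a differing knockout effect became 0 under cyclic loess and 2 with expressed probe sets alone or with the variance trend, and 0 to 2 with 1 array left out; after median scaling the 1 call was Ubr2 1453878_at in place of 1427163_at. Ube2b probe sets differing from the rest of the gene numbered 2 in spermatocytes and 2 in spermatids among expressed probe sets, where 1430177_at is not tested, and 2 to 4 and 3 to 4 with 1 array left out (2 in spermatocytes without either knockout spermatocyte array or without wild type spermatocyte replicate 2). The stage counts stayed within 15 to 24 in wild type and 17 to 24 in the knockout.

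Some knockout stage differences turned positive: under cyclic loess Ube2b 1439477_at (0.075) and Rnf40 (0.082), and after median scaling Ube2b 1439477_at (0.096), Ubr2 1427163_at (0.22), Rnf20 1419916_at (0.11), Rnf40 (0.053) and Wac 1451494_at (0.033). The cause was not tested. With the replicate number as a block, the replicate block, the counts were 2, 9, 1, 19 and 24 for the genotype difference in spermatocytes and in spermatids, its interaction, and the stage difference in wild type and in the knockout, and 4 and 3 for the Ube2b probe sets. Equal numbers share no more than a number: their deviations correlated at -0.229 to 0.216 between groups.

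Genotype differences under about 0.5 on the log2 scale were near the limit of 2 arrays a group.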

Other observations

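The protein-coding genes within 2 Mb of Ube2b, measured at 54 genes, were read beside the disrupted locus. In knockout spermatocytes 2 were higher and none was lower: Cby3 (log2 fold change 1.07, SE 0.17, adjusted p = 0.0120 from limma) and Zfp879 (0.63, SE 0.11, adjusted p = 0.0189). In knockout spermatids 5 were higher and 11 were lower, among them Ltc4s, which encodes leukotriene C4 synthase (1.49, adjusted p = 0.000565), Rmnd5b (-1.03, adjusted p = 0.00135) and Cby3 (1.02, adjusted p = 0.00361, all from limma). Of all genes, 2.22% were higher and 0.511% lower in knockout spermatocytes, and 6.93% were higher and 12.9% were lower in knockout spermatids. After median scaling, 13 of the 54 were higher and 4 lower in knockout spermatids, beside 18.8% and 5.02% of all probe sets. After cyclic loess 7 were higher and 3 lower, beside 5.5% and 5.5% of all probe sets. The shares under these 2 settings are over probe sets, a base unlike the gene counts, and shares over genes are not given here.

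Among probe sets not called in spermatids when all were tested, Ubr1 1420971_at was called with expressed probe sets alone (-0.63, adjusted p = 0.0429 from limma), and Wac 1451495_at likewise (-0.52, adjusted p = 0.039).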
